A study of Homo sapiens with 6 samples.

Results

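The RAB GTPase genes encode small GTP-binding proteins that mark the membranes of a cell and direct its vesicle traffic. They were taken as all rows of the deposited gene table whose symbol is RAB, a number and at most 1 letter from A to D. That rule gave 61 of the 26364 genes in the table, with no requirement on expression. The RNA came from MV4-11, an established human acute myeloid leukaemia line that carries an internal tandem duplication in the receptor tyrosine kinase gene FLT3. One group of cells was given 22d at 10 nM for 18 hours, and the other the vehicle DMSO for the same time, with 3 libraries in each group and the FLT3 duplication in all 6. 22d is known as an HDAC8 inhibitor, and the comparison asks which transcripts differ with it. This is a single cell line, and the labels do not say whether the libraries of a group came from separate cultures. The p-values therefore measure only the spread between these libraries, which may be technical.

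A RAB protein cycles between a GTP-bound form, which recruits effectors such as tethers, motors and kinases to a membrane, and a GDP-bound form that can be taken off it. Exchange factors load GTP, and GTPase-activating proteins, most with a TBC domain, promote its hydrolysis. Prenyl groups added at the C-terminus anchor the protein in the membrane, and GDP dissociation inhibitors carry it through the cytosol. Different RAB proteins mark early and recycling endosomes, late endosomes and lysosomes, the Golgi, and secretory vesicles. In myeloid cells they take part in phagocytosis and granule release. The genes were grouped by the compartment each is best known for, and many act at more than 1 place.

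The libraries held between 19995430 and 23749257 reads in genes. The values are normalized counts, that is, reads divided by 1 size factor per library. All 10 listed myelomonocytic markers were above a mean of 10 normalized counts, and their summed level was 44227 to 56122 with 22d and 71631 to 90196 with DMSO, led by the lysozyme gene LYZ. In bulk RNA, fewer cells of a type and less RNA per cell cannot be told apart. Of 4 T cell markers in the table, CD3D and CD2 were at 0 and the summed level reached at most 2.52. Of 5 fibroblast markers, COL1A2 and LUM were at 0 and the sum was 2.93 to 16.8 with 22d and 1.03 to 2.28 with DMSO. The 5 epithelial genes, none at 0 and led by KRT8 and KRT18, summed to 416 to 538 with 22d and 296 to 357 with DMSO, and their part in the results was not tested. The 5 megakaryocyte genes, with PF4 and PPBP at 0, summed to 384 to 576 with 22d and 381 to 403 with DMSO. The 5 B cell genes, with MS4A1 at 0, summed to 109 to 155 with 22d and 160 to 201 with DMSO, and the 5 erythroid genes to 12.8 to 22.7 with 22d and 17.6 to 44.4 with DMSO.

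Of the 61 RAB genes, 47 averaged 10 normalized counts or more across the libraries and were tested. With 22d, 15 of the 47 were higher and 10 were lower at a limma adjusted p under 0.05, and 22 did not pass. That is 53.2% of the tested members, where 58.0% of all 13297 genes tested passed. Passing higher took 31.9% of the members and 28.5% of all genes, and passing lower took 21.3% of the members and 29.6% of all genes. The changes were small: RAB8B and RAB33A were the 2 members past the test with a fitted change of at least 2-fold, or 4.26% of those tested, where 19.8% of all genes reached that size. RAB39A at -0.99 and RAB33B at 0.99 were just under it, on a scale where the added 1 shrinks the changes of low genes. The ratio of group means was 0.493 for RAB39A and 1.99 for RAB33B. The median size of a change, whatever its sign, was 0.37 on the log2 scale for the members and 0.49 for all genes, and the median signed change was 0.10 for the members and 0.01 for all genes. In 16 tested members every 22d library lay above every DMSO library and in 14 every one lay below. The groups do not overlap in 32.1% of all genes in the first direction, in 33.3% in the other and in 65.4% in either.

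The split between higher and lower depends on how the libraries are scaled. With division by library totals in place of the deposited scaling, 19 members were higher and 8 lower, where 39.7% of all genes were higher and 20.8% lower (60.5% in either direction), and the median of all genes stood at 0.22 in place of 0.01. With quantile normalization 16 were higher and 7 lower, where 29.7% of all genes were higher and 27.4% lower (57.1% in either direction). All further values are relative to the deposited scaling unless another is named.

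**Figure D1:**
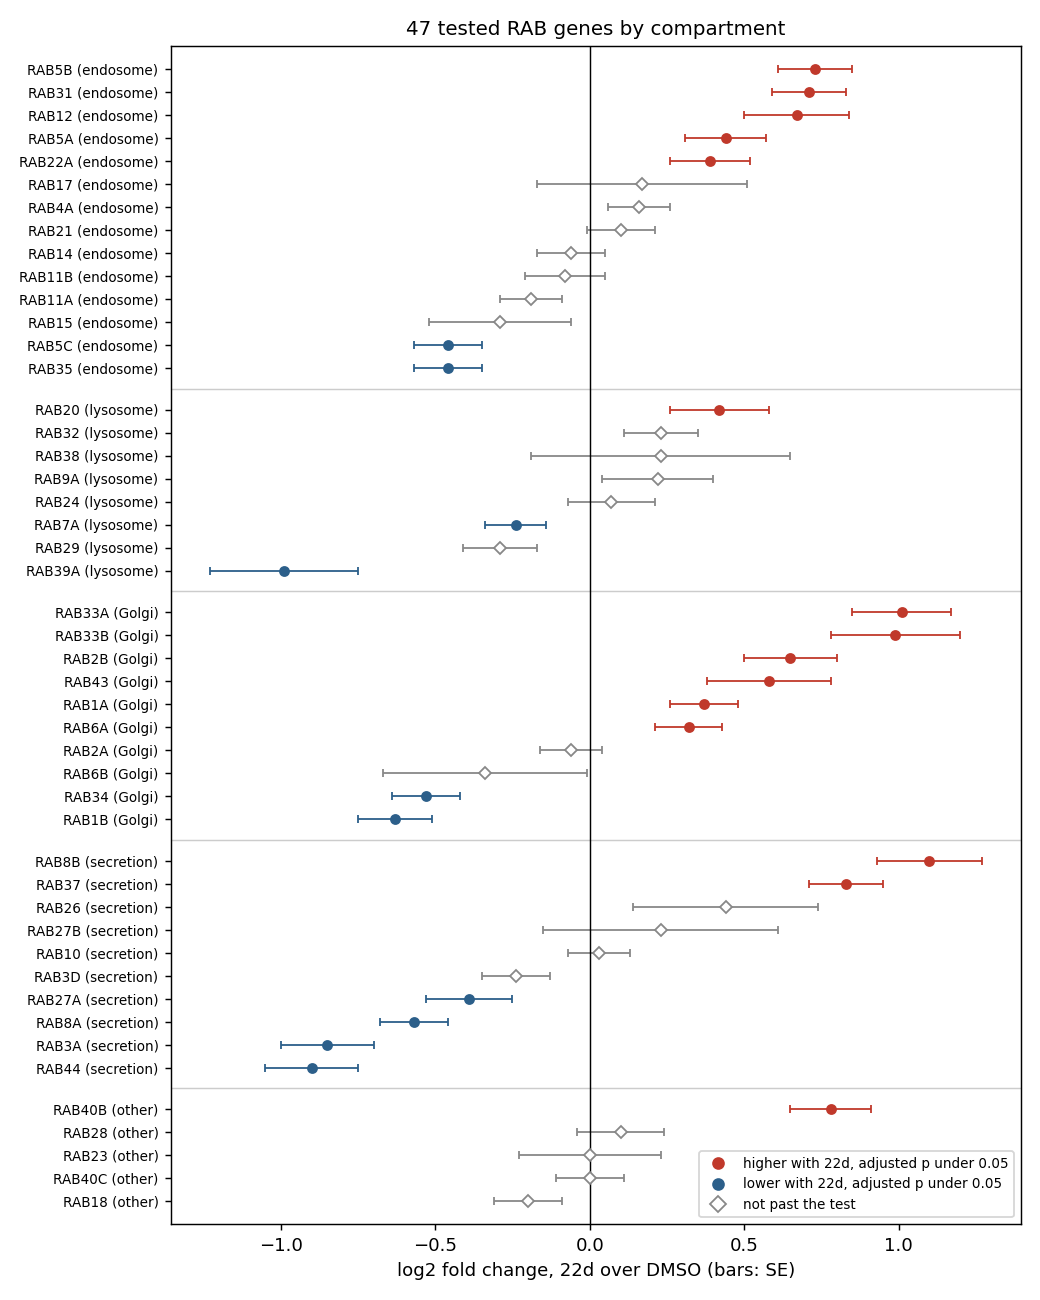
Log2 fold change of 22d over DMSO for the 47 tested RAB genes, one row per gene grouped by compartment, with bars for the SE of the limma fit. Filled red points (15) are higher and filled blue points (10) lower at an adjusted p under 0.05, and open diamonds (22) did not pass, and the changes lie between -0.99 for RAB39A and 1.10 for RAB8B.

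By compartment, 5 of 14 tested endosome genes were higher and 2 lower, and 6 of 10 tested Golgi genes were higher and 2 lower, where 28.5% of all genes were higher and 29.6% lower. Among the 8 tested lysosome and late endosome genes 1 was higher and 2 were lower, and among the 10 tested secretion genes 2 were higher and 4 lower. The median log2 fold change was 0.13 for endosome, 0.14 for lysosome, 0.34 for Golgi and -0.11 for secretion genes. No test compared the compartments with each other. With library totals the split became 7 higher and 2 lower for endosome, 2 and 1 for lysosome, 6 and 2 for Golgi, and 3 and 3 for secretion, beside 39.7% higher and 20.8% lower over all genes. With quantile normalization it was 6 and 0 for endosome, 1 and 2 for lysosome, 5 and 2 for Golgi, and 3 and 3 for secretion, beside 29.7% higher and 27.4% lower over all genes.

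**Figure D2:**
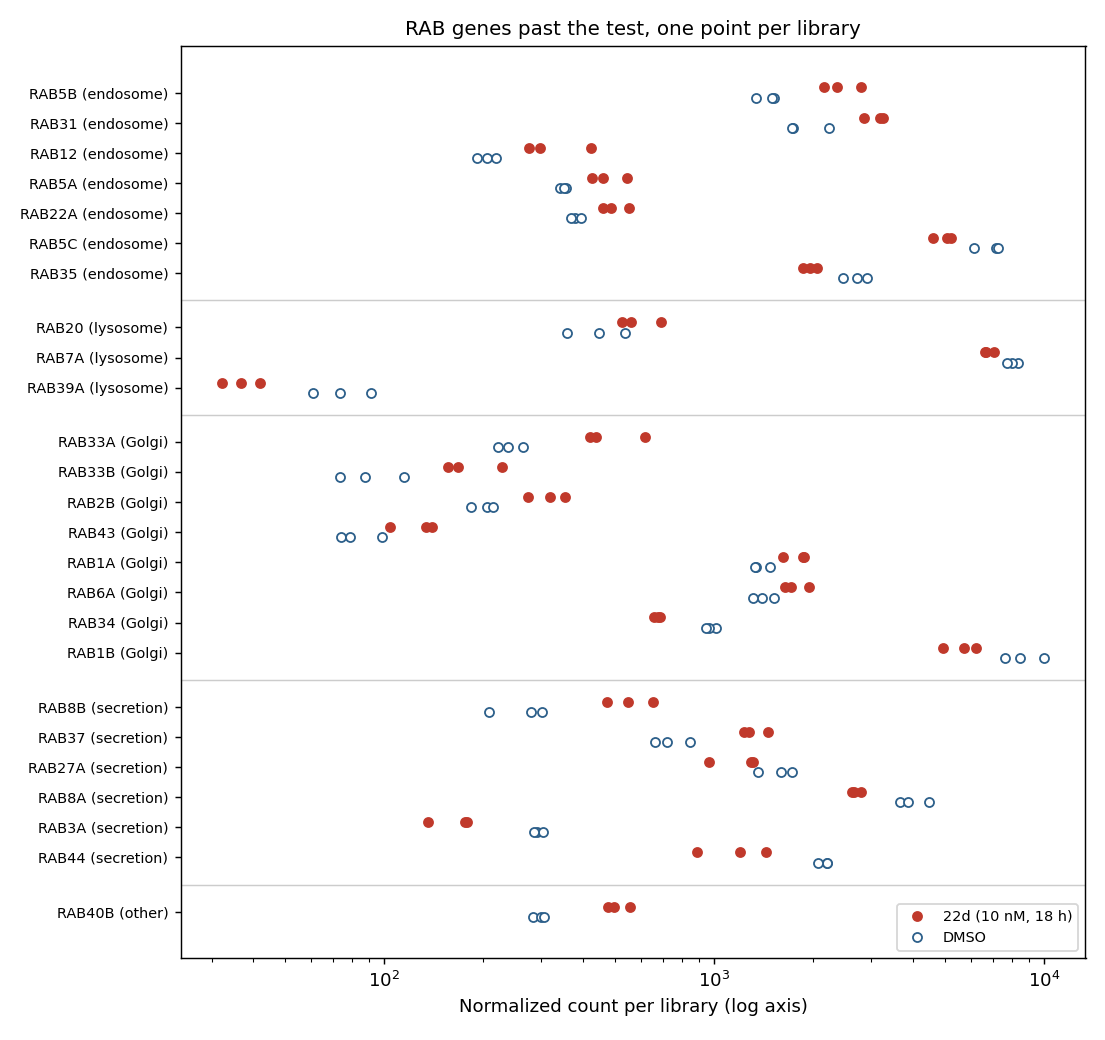
Normalized count in each library, on a log axis, for the 25 RAB genes past the test, grouped by compartment. Filled red points are the 22d libraries and open blue points the DMSO libraries, 3 each per gene, and RAB20 is the gene whose groups overlap.

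The early endosome genes of the RAB5 family moved in different directions. RAB5A, RAB5B and RAB5C encode close paralogs that drive fusion of early endosomes. RAB5B held 2788, 2356 and 2154 normalized counts in the 22d libraries, against 1525, 1499 and 1345 in the DMSO libraries. All 22d values lay above all DMSO values, and RAB5B rose by 0.73 on the log2 scale (limma SE 0.12, adjusted p = 0.00016). RAB5A had 545, 460 and 428 normalized counts with 22d, against 356, 341 and 352 with DMSO. It rose by 0.44 (limma SE 0.13, adjusted p = 0.012), also without overlap. RAB5C, the paralog with the most reads per kilobase of exon and with 28.8% of its exon bases shared with another gene on its strand, went the other way, with 4613, 5068 and 5231 normalized counts with 22d, against 7148, 7262 and 6135 with DMSO. It fell by 0.46 (limma SE 0.11, adjusted p = 0.0023), a call lost under quantile normalization, where the change was -0.14 (adjusted p = 0.19). Per kilobase of merged GENCODE exon, RAB5C stood at 1800 with 22d and 2480 with DMSO, RAB5B at 369 and 221, and RAB5A at 126 and 92.4.

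RAB22A and RAB31, its closest relative, act on endosomes and on transport between the Golgi and endosomes. RAB31 held 2850, 3259 and 3193 normalized counts with 22d, against 1742, 1722 and 2238 with DMSO. The lowest 22d library was above the highest DMSO library, and RAB31 rose by 0.71 (limma SE 0.12, adjusted p = 0.00025). RAB22A averaged 501 ± 48.4 normalized counts with 22d, against 381 ± 13.4 in the DMSO group (SD, n = 3 each), and rose by 0.39 (limma adjusted p = 0.018). Without DMSO replicate 1 the change of RAB22A was again 0.39, with an adjusted p of 0.051.

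RAB12 encodes a GTPase of transport from recycling endosomes to lysosomes. It had 424, 276 and 298 normalized counts with 22d, against 205, 192 and 219 with DMSO, with 22d replicate 1 well above the other 2 libraries with 22d. It rose by 0.67 (limma SE 0.17, adjusted p = 0.0047). RAB35, which acts in fast recycling to the plasma membrane, had 2051, 1863 and 1949 normalized counts with 22d, against 2723, 2909 and 2455 with DMSO. It fell by 0.46 (limma SE 0.11, adjusted p = 0.0022) without overlap between the groups. Under quantile normalization its change was -0.22 (adjusted p = 0.064).

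RAB11A, which marks the recycling endosome, had 1164, 1260 and 1197 normalized counts with 22d, against 1403, 1393 and 1340 with DMSO. Its groups do not overlap, but its log2 fold change of -0.19 (SE 0.10) had a limma adjusted p of 0.12. RAB11B, its paralog, stood at 4463 ± 428 normalized counts with 22d, against 4765 ± 858 in the DMSO group (SD, n = 3 each), with a log2 change of -0.08. RAB4A, of fast recycling, had a change of 0.16, and RAB14, of Golgi to endosome transport, one of -0.06. RAB21, which acts in integrin endocytosis, had 0.10. Under library totals RAB4A passed at 0.38 (adjusted p = 0.0085) and RAB21 at 0.32 (adjusted p = 0.03), and under quantile normalization RAB4A passed at 0.28 (adjusted p = 0.027). The low genes RAB15 and RAB17 had log2 fold changes of -0.29 and 0.17. RAB15 averaged 49.2 normalized counts with 22d and 60.9 with DMSO, and RAB17 averaged 19.7 with 22d and 17.9 with DMSO.

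The promoters of 2 endosome genes that rose hold the letters CACGTG, an E-box that factors such as MYC, USF and TFEB can bind, and they are shown because TFEB-type sites are known from genes of the endolysosomal system. The windows are the 250 bases before a RefSeq gene start in build GRCh38.p14, both strands were searched (the motif reads the same on both), and the capitals mark the match. RAB5A lies on the plus strand at chr3:19946847-19947096, and its CACGTG starts 121 bases before the gene start. Its capitals mark the longer palindrome of the CLEAR box, a known TFEB site, which contains CACGTG. RAB31 lies on the plus strand at chr18:9708051-9708300, with its match 60 bases before the start.
RAB5A: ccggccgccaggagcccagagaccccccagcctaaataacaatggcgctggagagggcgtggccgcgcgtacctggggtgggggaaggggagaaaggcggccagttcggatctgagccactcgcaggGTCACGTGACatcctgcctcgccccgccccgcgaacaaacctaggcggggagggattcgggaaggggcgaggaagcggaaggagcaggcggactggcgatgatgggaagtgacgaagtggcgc
RAB31: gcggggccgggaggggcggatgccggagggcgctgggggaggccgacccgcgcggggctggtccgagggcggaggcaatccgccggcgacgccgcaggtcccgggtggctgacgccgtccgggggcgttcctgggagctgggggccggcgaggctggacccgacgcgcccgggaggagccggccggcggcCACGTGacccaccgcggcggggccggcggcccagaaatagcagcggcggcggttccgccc

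A promoter entry was found for 48 of the 61 members, several with more than 1 start. CACGTG was present in 5 of 68 member promoters (7.35%), against 6.34% of all 35116 promoters of the same length and 8.28% of promoters of tested genes. The 5 belong to RAB4A, RAB5A, RAB21, RAB24 and RAB31. The CLEAR palindrome, also searched on both strands, was in 1 of 68 member promoters (1.47%), that of RAB5A. It was in 0.308% of all promoters and 0.564% of promoters of tested genes. Among members with a promoter entry, 2 of 9 that rose, 0 of 9 that fell and 3 of 18 tested genes that did not pass held CACGTG. By promoter that is 13.3% for the genes that rose and 13.0% for those that did not pass. These are matches of letters and not measured binding.

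Among the lysosome and late endosome genes, RAB7A is the best known, since it controls maturation of late endosomes and their fusion with lysosomes. RAB7A held 6633, 6669 and 7054 normalized counts with 22d, against 8350, 8024 and 7737 with DMSO. Its groups do not overlap, and it fell by 0.24 (limma SE 0.10, adjusted p = 0.042). The call was lost with scaling by library totals, where the change was -0.02 (adjusted p = 0.83), and under quantile normalization the change was 0.07 (adjusted p = 0.46). It was also lost in edgeR's quasi-likelihood test on recovered reads (-0.22, adjusted p = 0.065) and without 5 of the 6 libraries taken in turn. Per kilobase of exon RAB7A was the second highest tested member with 22d, at 2497, against 2958 with DMSO.

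RAB39A, which acts at phagosomes and autophagosomes, had 32.3, 42.0 and 36.9 normalized counts with 22d, against 91.0, 61.0 and 73.5 with DMSO. It fell by 0.99 on the log2 scale (limma SE 0.24, adjusted p = 0.0032), the largest fall among the tested members, from a low level. RAB20, of phagosome maturation, had 692, 527 and 562 normalized counts with 22d, against 538, 448 and 358 with DMSO. DMSO replicate 1 lay above 22d replicate 2, so the groups overlap. RAB20 rose by 0.42 (limma SE 0.16, adjusted p = 0.041). It no longer passed without DMSO replicate 3 (0.26, adjusted p = 0.18), DMSO replicate 2 (0.42, adjusted p = 0.077), 22d replicate 1 (0.30, adjusted p = 0.13) or 22d replicate 3 (0.45, adjusted p = 0.059), and under quantile normalization (0.42, adjusted p = 0.051).

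RAB32 and RAB38 are paralogs that build lysosome-related organelles such as melanosomes and platelet granules. RAB32 had 1265, 1130 and 1129 normalized counts with 22d, against 1156, 956 and 908 with DMSO. The groups overlap, and its log2 fold change of 0.23 (SE 0.12) did not pass (limma adjusted p = 0.12). Under library totals it was 0.45 (adjusted p = 0.0063), and under quantile normalization 0.34 (adjusted p = 0.026). RAB38 was near the filter, with 11.7, 10.0 and 10.9 normalized counts with 22d, against 9.10, 12.4 and 6.58 with DMSO, and no difference was detectable at this depth (0.23, SE 0.42).

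The other tested genes of this compartment did not pass. RAB29, which recruits the kinase LRRK2 to membranes, averaged 456 ± 17.4 normalized counts with 22d, against 557 ± 25.7 in the DMSO group (SD, n = 3 each), with a log2 change of -0.29 (limma SE 0.12, adjusted p = 0.0505). It passed at the same size under quantile normalization (adjusted p = 0.042) and with a higher filter of 50 (adjusted p = 0.044). RAB24, linked to autophagy, had a change of 0.07, and RAB9A, of transport from late endosomes to the Golgi, one of 0.22. RAB24 shares 44.8% of its exon bases with MXD3 on the same strand, and MXD3 itself fell by 0.91 (limma SE 0.18, adjusted p = 0.00099).

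Of the Golgi genes, the RAB33 pair changed most. RAB33A and RAB33B act in transport within the Golgi, and RAB33B binds the autophagy protein ATG16L1. RAB33A had 620, 421 and 439 normalized counts with 22d, against 263, 221 and 238 with DMSO, with 22d replicate 1 the highest. It rose by 1.01 (limma SE 0.16, adjusted p = 0.00016). RAB33B had 228, 167 and 156 normalized counts with 22d, against 87.6, 73.4 and 115 with DMSO. It rose by 0.99 (limma SE 0.21, adjusted p = 0.0013), and for both genes every 22d library was above every DMSO library.

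RAB1A and RAB1B control traffic from the endoplasmic reticulum to the Golgi, and RAB2A and RAB2B act between the Golgi and the compartments around it. RAB1A had 1867, 1871 and 1618 normalized counts with 22d, against 1474, 1340 and 1335 with DMSO, and rose by 0.37 (limma SE 0.11, adjusted p = 0.011). RAB1A shares 22.9% of its exon bases with CEP68 on the opposite strand, and CEP68 rose by 0.91 (limma adjusted p = 0.00013). Its part in the RAB1A value was not tested. RAB1B had 4933, 5713 and 6209 normalized counts with 22d, against 8447, 10035 and 7598 with DMSO, and fell by 0.63 (limma SE 0.12, adjusted p = 0.00082). RAB1B shares 42.6% of its exon bases with genes on the opposite strand. Its highest 22d value was below the lowest DMSO value. Per kilobase of exon it was the highest tested member in both groups, at 2799 with 22d and 4332 with DMSO.

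RAB2B had 354, 319 and 273 normalized counts with 22d, against 205, 183 and 214 with DMSO, and rose by 0.65 (limma SE 0.15, adjusted p = 0.0025) without overlap. RAB2A, the more abundant paralog, stood at 2425 ± 154 normalized counts with 22d, against 2522 ± 79.4 in the DMSO group (SD, n = 3 each), with a log2 change of -0.06 (SE 0.10) that did not pass.

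RAB6A directs retrograde transport from endosomes through the Golgi. It had 1941, 1713 and 1643 normalized counts with 22d, against 1400, 1310 and 1521 with DMSO. It rose by 0.32 (limma SE 0.11, adjusted p = 0.024), and no longer passed without 22d replicate 1 (0.25, adjusted p = 0.062), DMSO replicate 1 (0.32, adjusted p = 0.071) or DMSO replicate 2 (0.27, adjusted p = 0.08). RAB6A reads may be split with RAB6C, a near-identical retrogene copy that held at most 2 reads in a library, so the value of RAB6C is uncertain. RAB6B, the paralog best known from neurons, averaged 22.3 normalized counts with 22d and 27.7 with DMSO, a change of -0.34 (SE 0.33) that did not pass.

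RAB34, which acts in the position of lysosomes around the Golgi and in cilium formation, had 686, 675 and 657 normalized counts with 22d, against 1012, 967 and 946 with DMSO. It fell by 0.53 (limma SE 0.11, adjusted p = 0.0009), with a narrow spread in both groups. RAB43, of Golgi transport, averaged 126 ± 19.6 normalized counts with 22d, against 83.7 ± 12.8 in the DMSO group (SD, n = 3 each), and rose by 0.58 (limma SE 0.20, adjusted p = 0.023). That call was lost under quantile normalization (0.36, adjusted p = 0.14) and without 22d replicate 2, 22d replicate 3, DMSO replicate 1 or DMSO replicate 3 (0.50 to 0.55, adjusted p = 0.056 to 0.091). RAB43 shares 79.3% of its exon bases with the readthrough gene ISY1-RAB43, which is listed at 0 in every library.

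In secretion, RAB8A and RAB8B, which carry vesicles to the plasma membrane, moved apart. RAB8B had 654, 548 and 475 normalized counts with 22d, against 278, 208 and 301 with DMSO. It rose by 1.10 (limma SE 0.17, adjusted p = 0.00011), the largest rise among the tested members. RAB8A had 2784, 2654 and 2618 normalized counts with 22d, against 3674, 4498 and 3865 with DMSO. It fell by 0.57 (limma SE 0.11, adjusted p = 0.00048). In neither gene do the groups overlap, and RAB8A shares 37.8% of its exon bases with a gene on the opposite strand. RAB10, a relative of exocytosis and GLUT4 transport, stood at 3016 ± 105 normalized counts with 22d, against 2958 ± 66.7 in the DMSO group (SD, n = 3 each), a change of 0.03 (SE 0.10) that did not pass. It passed under library totals at 0.25 (adjusted p = 0.04) and under quantile normalization at 0.31 (adjusted p = 0.013).

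Genes of granule release also went both ways. RAB37, known from mast cell granules, had 1273, 1462 and 1230 normalized counts with 22d, against 721, 845 and 661 with DMSO. It rose by 0.83 (limma SE 0.12, adjusted p = 9.2e-05), the smallest p-value among the members. RAB44, a large atypical RAB protein known in mouse from the granules of mast cells, had 890, 1196 and 1441 normalized counts with 22d, against 2204, 2208 and 2063 with DMSO. It fell by 0.90 (limma SE 0.15, adjusted p = 0.0002), with 22d replicate 1 the lowest and a wider spread with 22d than with DMSO.

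RAB27A, which docks secretory granules and exosome-bearing endosomes and is lost in Griscelli syndrome, had 968, 1311 and 1296 normalized counts with 22d, against 1725, 1358 and 1596 with DMSO. Its lowest DMSO library was just above its highest 22d library, and it fell by 0.39 (limma SE 0.14, adjusted p = 0.026). The RAB27A call was lost without 22d replicate 1 (-0.25, adjusted p = 0.088), DMSO replicate 1 (-0.32, adjusted p = 0.12) or DMSO replicate 3 (-0.37, adjusted p = 0.069), under library totals (-0.17, adjusted p = 0.31) and under quantile normalization (-0.26, adjusted p = 0.14). RAB27B, its paralog, averaged 40.6 ± 19.4 normalized counts with 22d, against 32.5 ± 9.73 in the DMSO group (SD, n = 3 each) and did not pass (0.23, SE 0.38).

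RAB3A, the synaptic vesicle member, had 176, 136 and 178 normalized counts with 22d, against 291, 304 and 285 with DMSO. It fell by 0.85 (limma SE 0.15, adjusted p = 0.00042), without overlap. RAB3D, the family member of exocrine and mast cell granules, averaged 3037 ± 258 normalized counts with 22d, against 3594 ± 245 in the DMSO group (SD, n = 3 each), a change of -0.24 (limma adjusted p = 0.064). Without DMSO replicate 3 the change of RAB3D was -0.30 and passed (adjusted p = 0.043). RAB26, of secretory granule maturation, had a change of 0.44 (SE 0.30) that did not pass, and without 22d replicate 1 it was 0.74 (adjusted p = 0.039).

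Among the 5 tested members outside these compartments, RAB40B passed. RAB40 proteins carry a SOCS box and act as adaptors of ubiquitin ligases. RAB40B had 555, 476 and 498 normalized counts with 22d, against 282, 300 and 306 with DMSO, and rose by 0.78 (limma SE 0.13, adjusted p = 0.00018) without overlap. RAB40C, its paralog, averaged 1725 ± 103 normalized counts with 22d, against 1734 ± 176 in the DMSO group (SD, n = 3 each), a change of 0.00 (SE 0.11). RAB18, of lipid droplets and the endoplasmic reticulum, had a change of -0.20, the cilium gene RAB28 one of 0.10 and RAB23, a regulator of hedgehog signalling, one of 0.00. RAB23 shares 57.7% of its exon bases with BAG2 on the opposite strand, and BAG2 fell by 0.92 (limma adjusted p = 0.00015).

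The 14 members under the filter were not tested. RAB3B, RAB4B and RAB19 had 0 reads in every library, which allows up to 2.52 to 3.41 normalized counts per library. RAB4B shares exon bases with the readthrough genes RAB4B-EGLN2 and MIA-RAB4B on the same strand, and both of those are also listed at 0, so its 0 cannot be read as absence of the transcript. The other 11, with their lowest and highest normalized count over the 6 libraries, were RAB3C at 2.07 to 7.82, RAB6C at 0 to 2.28, RAB9B at 2.07 to 11.9, RAB13 at 1.03 to 4.20, RAB25 at 0 to 3.36 and RAB30 at 1.10 to 10.8. RAB36 was at 0 to 9.10, RAB39B at 0 to 2.74, RAB40A at 1.68 to 12.5, RAB41 at 1.10 to 8.80 and RAB42 at 0 to 5.04. RAB40A was at 5.87, 2.74 and 1.68 with 22d, against 12.5, 9.31 and 7.68 with DMSO, and can share reads with its near-identical copy RAB40AL. RAB39B, best known from neurons, had 1, 3 and 2 reads with 22d and none with DMSO, which is at or under the limit of 3 reads per library.

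Ratios between paralogs within a library do not depend on the library scaling, apart from the added 1. In 15 pairs with both members tested, the log2 ratio was compared between groups by an exact two-sided permutation test over the 6 libraries, which cannot go below p = 0.10 with 3 against 3. Hence no pair could pass, and the smallest adjusted p was 0.167. The difference between 22d and DMSO was at least 0.5 in size in 10 pairs. The share over all pairs of genes was not computed, so differences of this size cannot be called particular to RAB paralogs. For single genes, the median size of a change was 0.49 over all genes tested, and the groups did not overlap in 65.4%.

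The ratio of RAB8A to RAB8B shifted most. Its log2 value was 2.09, 2.27 and 2.46 in the 22d libraries, against 3.72, 4.43 and 3.68 in the DMSO libraries, a difference of -1.67 (exact p = 0.10, adjusted p = 0.167). RAB5B over RAB5C stood at -0.73, -1.10 and -1.28 with 22d, against -2.23, -2.28 and -2.19 with DMSO, a difference of 1.19. RAB1A over RAB1B stood at -1.40, -1.61 and -1.94 with 22d, against -2.52, -2.90 and -2.51 with DMSO, a difference of 0.99. In these 3 pairs the groups do not overlap, and the member with fewer reads per kilobase gained on the other.

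RAB5A over RAB5C differed by 0.90, RAB40B over RAB40C by 0.78 and RAB2A over RAB2B by -0.70, each without overlap. RAB3A over RAB3D differed by -0.61 and RAB8A over RAB10 by -0.60, also without overlap. RAB5A over RAB5B differed by -0.29, with ratios of -2.35, -2.35 and -2.33 with 22d, against -2.09, -2.13 and -1.93 with DMSO. RAB33A over RAB33B differed by 0.02 (exact p = 1.0), with overlapping groups, as did RAB32 over RAB38 (-0.01) and RAB11A over RAB11B (-0.11). The pairs RAB6A over RAB6B (0.66), RAB22A over RAB31 (-0.32) and RAB27A over RAB27B (-0.63) overlap as well.

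**Figure D3:**
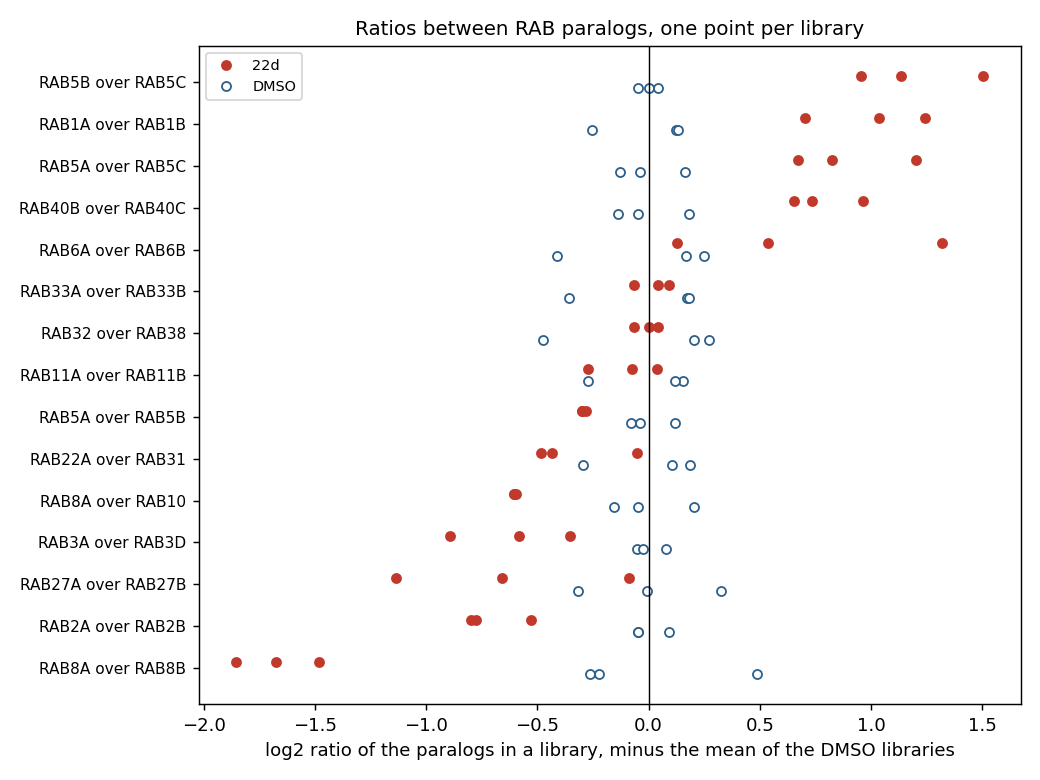
Log2 ratio of 2 RAB paralogs in each library, shown relative to the mean of the DMSO libraries, for the 15 pairs tested. Filled red points are the 22d libraries and open blue points the DMSO libraries, and RAB8A over RAB8B (difference -1.67) and RAB5B over RAB5C (difference 1.19) mark the ends of the range.

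Genes that regulate RAB proteins or act as their effectors were taken from 7 lists with 178 genes, all with a row in the table, of which 157 passed the filter. Of these 157, 63 were higher with 22d and 19 lower, and 75 did not pass, with a median log2 fold change of 0.24. Over all genes tested, 28.5% were higher and 29.6% lower, with a median of 0.01, and these are the shares to set beside each list that follows. Calls took 52.2% of the 157, where 58.0% of all genes tested passed. With library totals 91 were higher and 8 lower, where 39.7% of all genes were higher and 20.8% lower. With quantile normalization 78 were higher and 14 lower, where the shares of all genes were 29.7% and 27.4%. Changes of at least 2-fold were seen in 19, or 12.1%, where 19.8% of all genes reached that size.

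Of 15 genes of prenylation and membrane cycling, 8 were higher and 1 lower (median 0.32), beside 28.5% higher and 29.6% lower over all genes. CHM, which encodes Rab escort protein, averaged 322 ± 20.1 normalized counts with 22d, against 185 ± 45.0 in the DMSO group (SD, n = 3 each), and rose by 0.82 (limma SE 0.17, adjusted p = 0.0013). RABGGTA, a subunit gene of the enzyme that prenylates RAB proteins, fell by 0.28 (limma adjusted p = 0.04), and that call was lost in 8 of the alternatives, among them both other scalings and edgeR. With library totals the list had 10 higher and 0 lower, beside 39.7% and 20.8% of all genes.

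Among 39 tested exchange factors and their partners, 15 were higher and 7 lower (median 0.18). RIN3, which encodes a RAB5 exchange factor, had 3739, 2425 and 2941 normalized counts with 22d, against 1133, 1051 and 966 with DMSO, and rose by 1.51 (limma SE 0.14, adjusted p = 2.3e-06). RIN1, another RAB5 exchange factor gene, had 749, 1015 and 1144 with 22d, against 1700, 1829 and 1634 with DMSO, and fell by 0.85 (limma SE 0.14, adjusted p = 0.00024). DENND4C, of the DENN family that acts on RAB10, rose by 1.46 and DENND2D fell by 0.70. The 2 RAB5 exchange factor genes thus moved in opposite directions. With library totals the list had 19 higher and 3 lower, beside 39.7% higher and 20.8% lower over all genes. With quantile normalization it had 19 and 7, beside 29.7% and 27.4% of all genes.

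Of 34 tested TBC-domain and related GTPase-activating protein genes, 14 were higher and 4 lower (median 0.30). TBC1D17 averaged 1550 ± 401 normalized counts with 22d, against 598 ± 70.1 in the DMSO group (SD, n = 3 each), and rose by 1.35 (limma SE 0.16, adjusted p = 1.5e-05). TBC1D14, a RAB11-binding regulator of autophagy, rose by 1.00. TBC1D10B, an activator of hydrolysis by RAB27A and RAB35 in cells, fell by 0.70 (limma SE 0.12, adjusted p = 0.0002). TBC1D1 fell by 0.33, a call lost with library totals, with quantile normalization and without 22d replicate 3 or DMSO replicate 3. With library totals the list had 22 higher and 1 lower, beside 39.7% higher and 20.8% lower over all genes. With quantile normalization it had 16 and 2, beside 29.7% and 27.4% of all genes.

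Among endosome effectors, 8 of 22 were higher and 4 lower (median 0.22). VPS8, a subunit gene of the CORVET tether that RAB5 recruits, averaged 651 ± 85.4 normalized counts with 22d, against 226 ± 32.6 in the DMSO group (SD, n = 3 each), and rose by 1.52 (limma SE 0.15, adjusted p = 2.9e-06). TGFBRAP1, another CORVET subunit gene, fell by 0.49 (limma SE 0.10, adjusted p = 0.0012). PIK3C3, the class III phosphatidylinositol kinase gene, rose by 0.92. ANKFY1 fell by 0.35, a call lost under both other scalings. EEA1, the tether of early endosomes, had a change of 0.41 that did not pass, though it passed with library totals. With library totals the list had 14 higher and 1 lower, beside 39.7% higher and 20.8% lower over all genes. With quantile normalization it had 13 and 2, beside 29.7% and 27.4% of all genes.

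Of 19 tested lysosome effectors 8 were higher and 1 was lower (median 0.22). VPS41, a subunit gene of the HOPS tether that RAB7A and its partners recruit, averaged 1265 ± 147 normalized counts with 22d, against 597 ± 50.9 in the DMSO group (SD, n = 3 each), and rose by 1.08 (limma SE 0.12, adjusted p = 1e-05). GCC2, a golgin gene whose product binds RAB9A, rose by 1.41. VPS18, of the core shared by HOPS and CORVET, fell by 0.54 (limma SE 0.12, adjusted p = 0.0023).

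Golgi effectors were higher in 8 of 15 cases and lower in 1 (median 0.43). The giant golgin gene GOLGB1 rose by 1.39 (limma SE 0.19, adjusted p = 3.9e-05) and COG6, of the conserved oligomeric Golgi complex, by 1.13. GORASP2, a Golgi stacking protein gene, fell by 0.54 (limma SE 0.10, adjusted p = 0.00054). Of 24 listed secretion effectors 13 were tested, of which 2 were higher and 1 lower (median 0.16). MYO5A, which encodes the myosin that moves RAB27A-bearing granules, had 2054, 1625 and 1602 normalized counts with 22d, against 549, 587 and 674 with DMSO. It rose by 1.54 (limma SE 0.13, adjusted p = 8.7e-07), while RIMS3 fell by 0.87. UNC13D, which encodes the RAB27A effector Munc13-4, did not pass (-0.13, SE 0.12). With library totals 7 secretion effectors were higher and 1 lower, beside 39.7% higher and 20.8% lower over all genes.

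**Figure D4:**
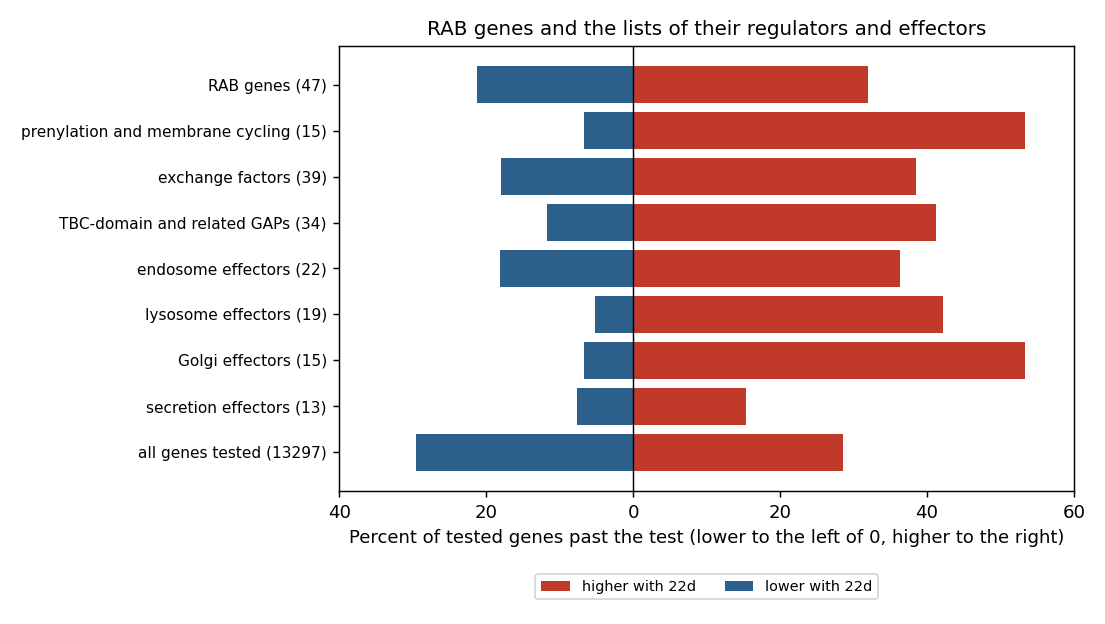
Percent of tested genes past the limma test in each direction, higher with 22d to the right of 0 and lower to the left, for the RAB genes, the 7 lists of regulators and effectors, and all genes tested, with the number tested in brackets. RAB genes stood at 31.9% higher and 21.3% lower, and all genes at 28.5% higher and 29.6% lower.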

How the data were processed

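RNA of MV4-11 cells was sequenced in 6 libraries. The submitters' processing notes name the tools STAR, HTSeq, DESeq2, cutadapt and FastQC and the build hg38. Versions, annotation and strand setting are not given in the sources used here. It is therefore not known whether reads of genes on opposite strands were counted apart. The deposited values are a normalized signal, read counts that the authors divided by a size factor. Multiplied back, 100% gave whole reads (tolerance 0.001). The authors' deposited log2 fold changes, test scores and p-values served as an alternative. One normalized count was close to 1 read, but the scale differed by group. It was 0.8395 to 0.9776 normalized counts per read in the 22d libraries and 1.0343 to 1.138 in the DMSO libraries.

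Limma-trend 3.58.1 (R 4.3.3) was fitted on log2(normalized count + 1) for 13297 genes averaging 10 or more, without a block, with Benjamini-Hochberg adjustment over all of them and a threshold of 0.05. Fold changes are on that scale, where the added 1 shrinks those of low genes. Python 3.11.15 and matplotlib 3.10.9 were used for tables and figures. Alternatives were edgeR 4.0.16 and DESeq2 1.42.0 on recovered reads, other pseudocounts, filters and scalings, a replicate block, and each library left out. The limma fit was tested on simulated data in which 200 of 13297 genes changed. It recovered 44.8% of 1.5-fold, 83.6% of 2-fold and 98.5% of 4-fold changes, and 7.36% of its 163 calls were false. In the real data 58.0% of genes passed, so these rates may not carry over. The labels number the libraries in both groups, but same-numbered libraries did not deviate together (r between -0.102 and -0.018 over genes). Replicates differed by more than sampling noise, so none was counted as a duplicate.

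The members, compartments and lists were chosen with earlier results of these data known. Every tested member is named. Values per library are given in each compartment for the 3 largest rises and 3 largest falls among genes past the test, and for RAB5A, RAB7A, RAB11A, RAB1A, RAB6A, RAB8A, RAB27A, RAB32 and RAB38. In each list the 2 largest rises and 2 largest falls with a mean of at least 100 are named, except 1 gene that is not reported here, and a few other members (EEA1, UNC13D, and values per library for some list genes) were added after their values were seen. Exon lengths and overlaps came from GENCODE 29, promoters from RefSeq (GRCh38.p14).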

Additional observations from a re-analysis of the deposited data

How the results depend on the processing

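Of the 25 calls among RAB genes, 17 held in all 16 alternatives that were run, 11 higher and 6 lower. RAB1A, 1 of these 17, held only narrowly without 22d replicate 2 (limma adjusted p = 0.05 after rounding). No count of held calls over all genes is given here, so this stability cannot be called particular to RAB genes. Of 744 gene values under alternatives, 702 kept their side of the threshold, 30 lost a call, 11 gained one and 1 was a gene past the test that changed sign (RAB7A, 0.07 under quantile normalization). Genes that did not pass also changed sign under other scalings, among them RAB2A (0.19), RAB3D (0.06), RAB11B (0.23), RAB14 (0.17) and RAB17 (-0.12) under quantile normalization and RAB11A (0.03) and RAB18 (0.02) with library totals. With 1 library left out, 20 to 23 RAB genes passed, 12 to 14 higher and 8 to 10 lower, as did 68 to 78 regulators and effectors, and 8 to 10 paralog pairs differed by at least 0.5. With DESeq2 25 passed and with edgeR 24. The shares of all genes that passed with 1 library left out, with DESeq2 or with edgeR are not given here. The replicate block gave 24 RAB genes, losing RAB7A (-0.24, adjusted p = 0.11), and changed no other RAB call.

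Counts of higher minus lower genes per compartment were small and moved easily. For endosome genes it was 3, and became 6 under quantile normalization and 5 with library totals (2 to 3 with 1 library left out). For lysosome genes it was -1, and became 0 with no filter, with the replicate block and with edgeR, -2 with a filter of 50, and 1, the other sign, with library totals (-2 to 0 with 1 library left out: 0 without 22d replicate 2 or DMSO replicate 1, -2 without DMSO replicate 3). For Golgi genes it was 4 (2 to 3 with 1 library left out, 2 without DMSO replicate 1). For secretion genes it was -2, and became 0 under quantile normalization and with library totals, and -1 with genes counted at their other compartment (-2 to 0 with 1 library left out: 0 without 22d replicate 1, -1 without DMSO replicate 1). The cause of these shifts was not tested. Genes under about 10 normalized counts could not be judged at this depth. The limit of 3 reads per library covers counting error only, while the SE and SD values measure the spread between these libraries.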

Other observations

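RAB44 lies next to CDKN1A on chromosome 6, with 10493 bases between the end of CDKN1A (36687332) and the start of RAB44 (36697826) in GRCh38.p14 and no other RefSeq gene within that gap. CDKN1A, the gene of the cell cycle inhibitor p21, had 10340, 11244 and 10568 normalized counts with 22d, against 2663, 2375 and 1673 with DMSO, and rose by 2.29 (limma SE 0.15, adjusted p = 1.1e-07). RAB44 fell by 0.90, so these neighbours moved in opposite directions. The pair was chosen after the values were seen.

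Calls were also counted by level, at a limit of 1000 normalized counts that was set after the values were seen, and the difference between the levels was not tested. Of 22 tested members with a mean of at least 1000 over the 6 libraries, 5 were higher and 7 lower with 22d, while of 25 under that level 10 were higher and 3 lower. All genes tested showed the same order, with 20.6% higher and 45.3% lower of 4583 at or above 1000, and 32.6% higher and 21.3% lower of 8714 under it. Among paralog pairs whose ratios did not overlap between groups, the gap per kilobase of exon was narrower with 22d in 6 of 9 and wider in 3, and over all 15 pairs it was narrower in 8 and wider in 7.

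22d replicate 1 was the furthest of the 22d libraries from DMSO in 11 of the 15 members that rose and in 6 of the 10 that fell. Over all genes it was the furthest in 62.0% of those that rose and 64.3% of those that fell.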
